A study of Mus musculus with 6 samples.

Results

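Mitochondrial ribosomal proteins are the protein-coding genes of the deposited table whose symbol is Mrpl or Mrps followed by a number. There were 78 of them among the 54532 genes listed, 49 named for the large ribosomal subunit (Mrpl) and 29 for the small subunit (Mrps). The study sequenced RNA from the myocardium of hypertrophic hearts of wild-type C57BL/6 mice aged 18 weeks. The 3 control samples came from hearts given AAV9-EGFP, an adeno-associated virus of serotype 9 that carries a green fluorescent protein, and the 3 TuD samples from hearts given AAV9-anti-miR-199a TuDs, the same kind of virus carrying tough decoys, hairpin RNAs that bind miR-199a and keep it from its targets. The hypertrophy of the hearts and the viral vector are thus common to both groups by the labels. The groups differ in the decoy, and also in their Y-linked transcripts, which are given below. How hypertrophy was brought about, the promoter that drove each cargo and whether each sample was a separate animal are not given in the sources used here, so every p-value measures the spread between samples.

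The mitochondrial ribosome translates the few messages encoded by mitochondrial DNA, all of which specify subunits of the respiratory chain and the ATP synthase. Its RNAs are made inside the organelle, whereas its proteins are encoded in the nucleus, made in the cytosol and imported. One set of these proteins descends from bacterial ribosomal proteins and keeps their numbering, and another was added in mitochondria. The heart, which depends on oxidative phosphorylation, is among the tissues affected when human mitochondrial ribosomal protein genes are mutated.

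Each library held 15.2 to 18.2 M reads (megareads, recovered from the deposited values), of which the mitochondrial genome took 5.31 to 11.96% in control samples and 11.1 to 17.5% in TuD samples. Summed levels of 9 cardiomyocyte markers were 29110 to 30678 normalised FPKM in control samples and 31964 to 38480 in TuD samples, but the list moved in both directions, with 4 genes higher (Pln, Tnnt2, Myl2 and Tnni3), Mybpc3 wholly below the controls without passing (-0.36, adjusted p = 0.0534), and a median that changed from +0.37 to -0.02 on the TPM scale described below. Adipocyte markers summed to 60.9 to 73.8 against 122 to 157, nearly all of it Fabp4, while the other 4 were below the filter. Skeletal muscle markers summed to 699 to 803 against 570 to 618, nearly all of it Ckm, which the heart also expresses. The others were below the filter. Of these, Mylpf lay at 0.349 to 0.477 in control samples and wholly above, at 0.912 to 1.42, in TuD samples. Tnnt3, Actn3 and Myh1 overlapped, and Myh4 was at 0 in all samples. Fibroblast, endothelial, smooth muscle, macrophage and erythroid sums overlapped between the groups. Single genes of these lists did differ. Lum, Tcf21, Egfl7, Rgs5, Hba-a1 and Hba-a2 were higher and Col1a2 was lower, while the rest did not pass or were below the filter. In bulk tissue, a change in the number of cells of a type and a change in RNA per cell cannot be told apart. Transcripts of Y-linked genes summed to 8.32 to 9.59 FPKM in the controls and 12.5 in TuD replicate 3, but to 0.0254 and 0.00711 in TuD replicates 1 and 2, a split the labels do not describe. The labels give no sex, and a difference in sex and the decoy cannot be fully told apart here. The part of these differences in the results below was not tested, except that counts are also given without TuD replicate 3 and with the presence of Y-linked transcripts as a covariate.

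In the TuD samples, 26 of the 77 tested mitochondrial ribosomal protein genes were higher and 4 were lower, at a limma adjusted p under 0.05. Over all 10460 tested genes 15.0% were higher and 14.3% were lower. Levels are given as deposited FPKM (fragments per kilobase of exon, scaled per library) divided by a size factor per library, called normalised FPKM. The library divisors behind the deposited FPKM were not the read totals. Changes are given as log2 fold changes, TuD minus control, after adding 0.5. The large subunit contributed 17 higher genes and 2 lower genes of 48 tested, and the small subunit 9 higher and 2 lower of 29. The median log2 fold change was +0.30 for the large and +0.23 for the small subunit, beside +0.01 for all tested genes, but after rescaling each library to a fixed FPKM sum (TPM) these medians were -0.08 and -0.15. The rescaling left all tested genes with a median of -0.36, so that the members stood 0.26 above it in either scaling. Of the individual calls, 4 members were higher and 19 lower on the TPM scale, against 4.19% and 40.2% of all tested genes.

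The control and TuD samples did not overlap for 51 of the 77 genes. In 44 of these all TuD samples lay above all controls, against 23.5% of all tested genes, and in 7 they lay below, against 24.4%. The fold change was above 0 for 35 of 48 large subunit genes and 24 of 29 small subunit genes. Over all 10460 tested genes it was above 0 for 5322. On the TPM scale 30 of the members turned from plus to minus.

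**Figure D1:**
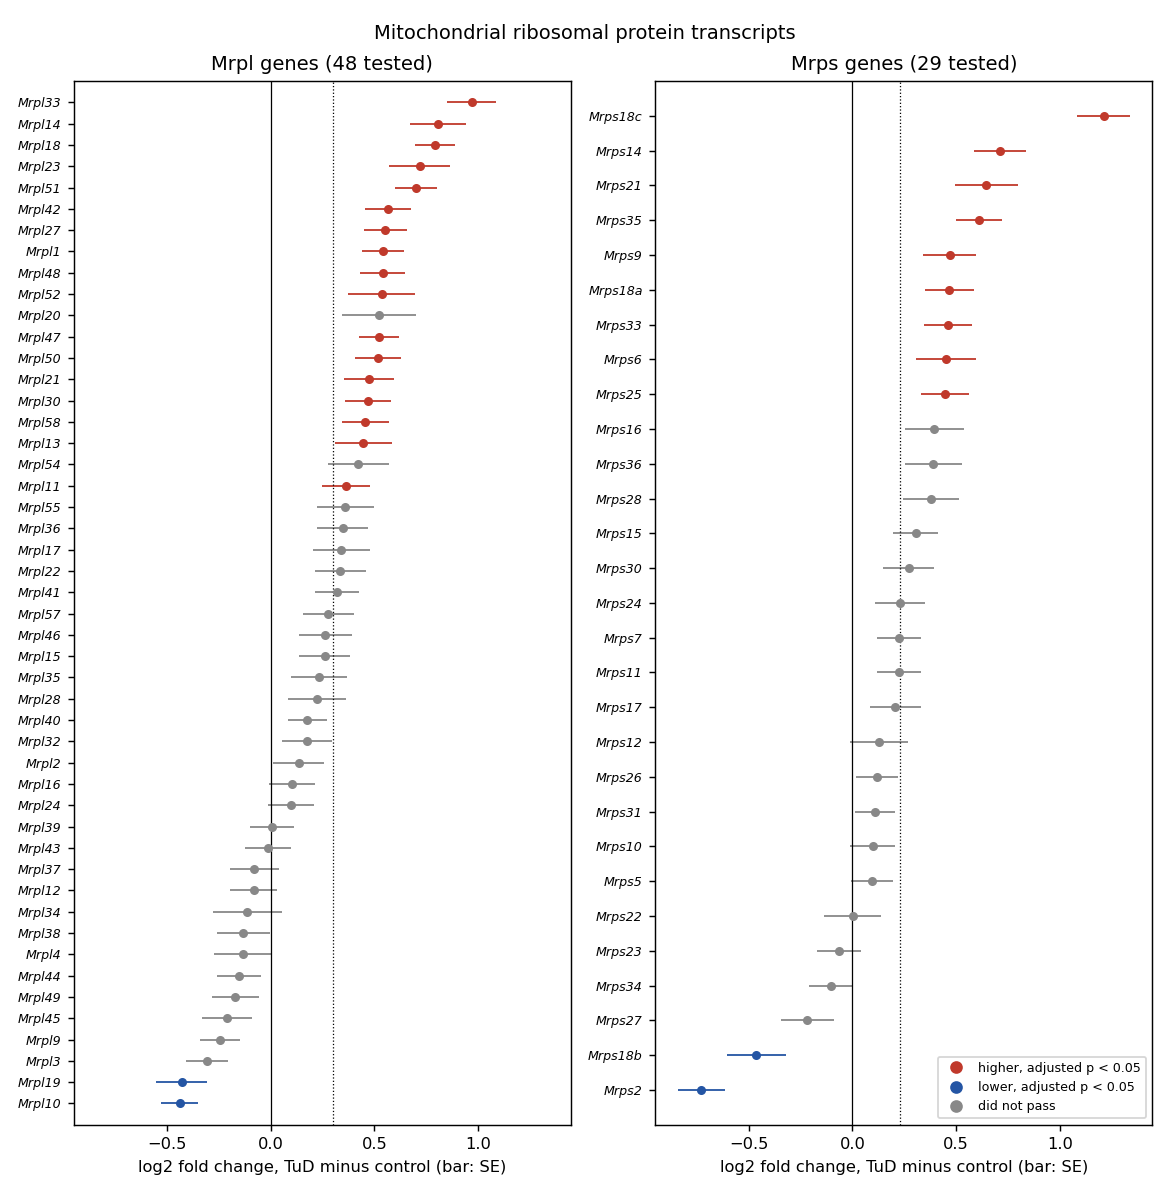
Log2 fold change (TuD minus control, with SE) of the tested large and small subunit genes, ordered by value within each subunit. Colour marks the 26 genes higher and 4 lower at an adjusted p under 0.05, most points lie above 0, and the medians of +0.30 and +0.23 became -0.08 and -0.15 after rescaling to TPM.

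The 3 TuD samples differed among themselves. The median deviation of the 48 large subunit genes from their mean over all samples was -0.23, -0.12 and -0.08 in control replicates 1, 2 and 3, and +0.13, +0.29 and -0.01 in TuD replicates 1, 2 and 3, on the log2 scale. The 29 small subunit genes gave -0.17, -0.08 and -0.10 in the controls and +0.08, +0.30 and +0.01 in the TuD samples. TuD replicate 2 was thus the highest library and control replicate 1 the lowest for both subunits, while TuD replicate 3 lay close above the controls. Among the 3 TuD samples, replicate 2 was the highest for 60 of the 77 genes and replicate 3 the lowest for 58. The share of all reads that fell on the members was 0.576 ± 0.0319% for control and 0.628 ± 0.0531% for TuD samples (SD, n = 3 each), and that of TuD replicate 3, 0.587%, lay within the control range of 0.541 to 0.603%.

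The counts moved with the sample left out. Without TuD replicate 3, 38 members were higher and 2 lower, where 16.3% and 15.3% of all tested genes were called. Without TuD replicate 2, 19 were higher and 2 lower, against 10.9% and 9.9%. Without control replicate 1 there were 15 higher and 3 lower, against 10.5% and 9.72%. Without control replicate 2 there were 15 higher and 2 lower, against 8.53% and 7.14%. Leaving out control replicate 3 left 17 higher and 2 lower members, against 9.25% and 8.37%, and leaving out TuD replicate 1 left 17 and 2, against 10.9% and 9.53%. The share of members called was above the background for higher genes and below it for lower genes in each of these 6 fits. With the Y-linked covariate, which was chosen with earlier results of these data known and rests the estimate on TuD replicate 3 against the 3 controls, 4 genes were higher and 2 lower of 77 and both medians were 0.14. Over all tested genes that fit called 6.22% higher and 5.06% lower, so that the share of members called was below the background in both directions. All 26 higher genes kept their sign in that fit. Through every one of the 6 fits that left out a sample, 14 of the 26 higher genes (Mrpl1, Mrpl14, Mrpl18, Mrpl23, Mrpl27, Mrpl33, Mrpl42, Mrpl47, Mrpl48, Mrpl50, Mrpl51, Mrps14, Mrps18c and Mrps35) and 2 of the 4 lower genes (Mrpl10 and Mrps2) stayed past the threshold.

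**Figure D2:**
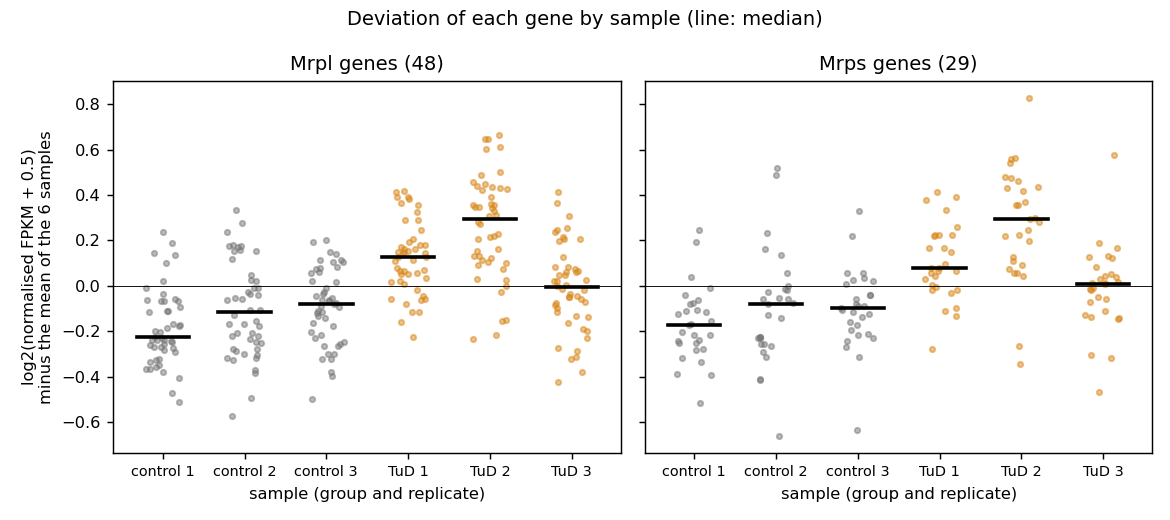
Deviation of each tested gene from its mean over the 6 samples, in log2 units of normalised FPKM, by sample and for the large and small subunit apart, with the median of each sample as a line. Medians of the controls lie below 0 and those of TuD replicates 1 and 2 above 0, with TuD replicate 3 near 0. This order is on the size-factor scale, and the group medians change sign on the TPM scale.

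The highest fold change of all members was that of Mrps18c (chr5:100798627-100804471, plus strand in mm10), a small subunit protein of the platform and one of 3 mammalian relatives of bacterial S18. It measured 7.53, 6.77 and 6.89 in control replicates 1, 2 and 3 and 14.8, 19.9 and 16.6 in TuD replicates 1, 2 and 3 (normalised FPKM). Every TuD sample lay above every control, and the mean rose from 7.07 ± 0.408 (control) to 17.1 ± 2.59 (TuD, SD, n = 3 each). The log2 fold change was +1.21 ± 0.127 (SE, n = 3 and 3; adjusted p = 0.00194), and +0.86 on the TPM scale. Exon bases shared with another gene on the same strand, Gm43511, make up 23.2% of its length, so reads of these genes could not be fully told apart.

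Its paralogues were called in both directions. Mrps18a, which structures place in the large subunit in spite of its name, measured 20.6, 25.8 and 23.1 in control replicates 1, 2 and 3 and 31.9, 34.99 and 29.8 in TuD replicates 1, 2 and 3. All TuD samples were above the controls, with a log2 fold change of +0.47 ± 0.118 (SE, n = 3 and 3; adjusted p = 0.0212). Mrps18b measured 7.28, 10.5 and 8.61 in control replicates 1, 2 and 3 and 6.75, 6.02 and 5.78 in TuD replicates 1, 2 and 3. Here all TuD samples were below the controls, with a log2 fold change of -0.46 ± 0.143 (SE, n = 3 and 3; adjusted p = 0.0422). The 3 relatives thus gave 2 calls upward and 1 downward, and 30.5% of the exon bases of Mrps18b lie opposite exons of another gene.

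Mrpl33 (chr5:31596935-31664384, plus strand) encodes a small protein of the large subunit. Its mean control level was the lowest of all tested members, and it measured 3.76, 3.23 and 3.43 in control replicates 1, 2 and 3 and 6.78, 8.202 and 6.89 in TuD replicates 1, 2 and 3. The TuD values were all above the controls and the log2 fold change was +0.97 ± 0.118 (SE, n = 3 and 3; adjusted p = 0.00241), or +0.65 on the TPM scale. The deposited length of this gene, 7326 bases of merged exons, is 15.3 times its 478-base coding transcript, which lowers its FPKM.

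Mrpl14 (chr17:45686322-45698495, plus strand), a protein of the subunit interface, measured 93.6, 107 and 103 in control replicates 1, 2 and 3 and 164, 212 and 159.6 in TuD replicates 1, 2 and 3. Mrpl18 (chr17:12911349-12916345, minus strand), the homologue of the bacterial 5S rRNA-binding protein L18, located in the central protuberance, measured 42.9, 39.2 and 44.2 in control replicates 1, 2 and 3 and 71.5, 76.3 and 71.7 in TuD replicates 1, 2 and 3. In both genes the TuD samples lay wholly above the controls, with TuD replicate 2 the highest. Their log2 fold changes were +0.81 ± 0.135 (SE, n = 3 and 3; adjusted p = 0.00574) and +0.79 ± 0.0973 (SE, n = 3 and 3; adjusted p = 0.00248). Together with Mrps18c and Mrpl33, these were the 4 members that were also higher on the TPM scale, at +0.42 and +0.41. After the coding transcript length correction described below, Mrpl33 (+0.22) and Mrpl14 (+0.25) did not pass, while Mrpl18 (+0.57) stayed higher.

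The next large subunit genes were Mrpl23 at +0.72, adjusted p = 0.0103, a protein at the exit of the nascent chain tunnel, Mrpl51 at +0.70, adjusted p = 0.00383 and Mrpl42 at +0.57, adjusted p = 0.00941, the latter both additions of mitochondria. Mrpl23 measured 15.2, 15.6 and 16.4 in control replicates 1, 2 and 3 and 26.2, 32.2 and 21.5 in TuD replicates 1, 2 and 3, and Mrpl51 34.2, 34.2 and 32.6 in control replicates 1, 2 and 3 and 56.3, 58.96 and 50.1 in TuD replicates 1, 2 and 3. No TuD sample of either gene reached down to the controls. Of these 3, Mrpl23, Mrpl51 and Mrpl42 gave +0.34, +0.32 and +0.18 on the TPM scale, none of them past the threshold there. After the coding transcript length correction, Mrpl23 (+0.20) and Mrpl42 (+0.02) did not pass, while Mrpl51 (+0.82) stayed higher.

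In the small subunit, Mrps14 (chr1:160195215-160202170, plus strand), a head protein whose human gene is linked to cardiomyopathy, measured 14.1, 13.3 and 14.4 in control replicates 1, 2 and 3 and 23.5, 26.7 and 19.7 in TuD replicates 1, 2 and 3. All TuD samples exceeded the controls, by a log2 fold change of +0.71 ± 0.125 (SE, n = 3 and 3; adjusted p = 0.00658). Mrps21, a platform protein and the most abundant small subunit transcript, measured 134, 125 and 141 in control replicates 1, 2 and 3 and 219, 247 and 168 in TuD replicates 1, 2 and 3, again without overlap. Its log2 fold change was +0.65 ± 0.1502 (SE, n = 3 and 3; adjusted p = 0.0161), but -0.21 after correction for coding transcript length. Mrps35, a head protein, followed at +0.61, adjusted p = 0.006803, and Mrps9, also of the head, at +0.47, adjusted p = 0.0295.

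**Figure D3:**
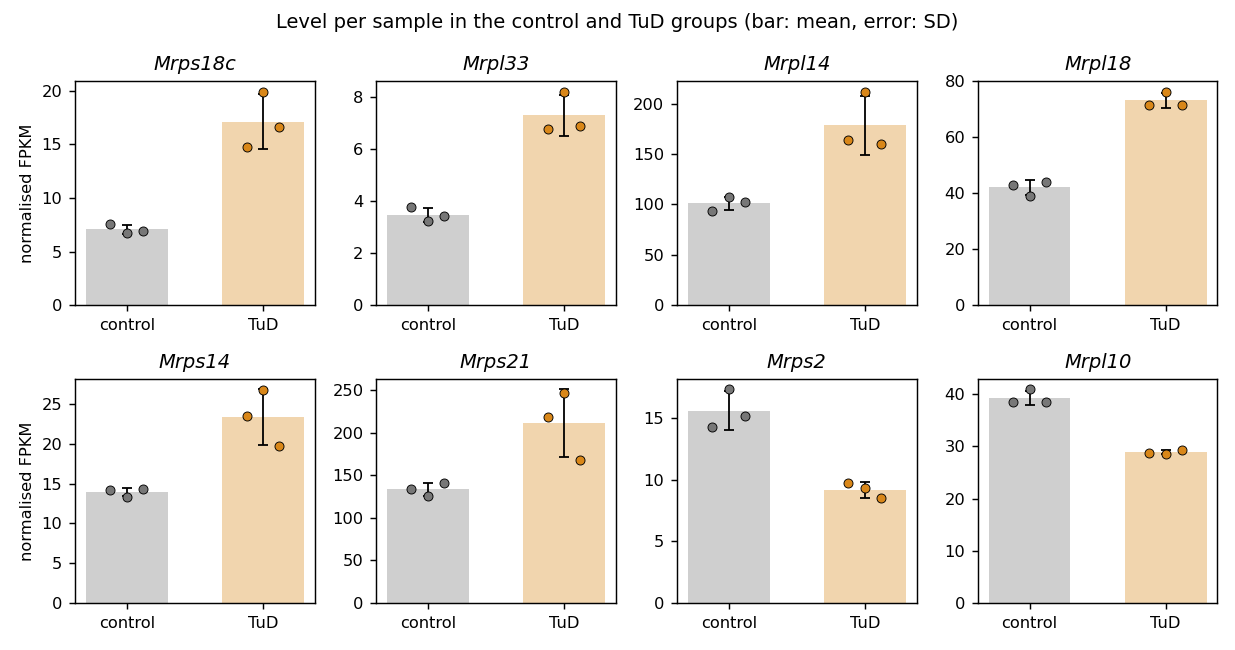
Normalised FPKM of selected members in each of the 3 control and 3 TuD samples, with group mean and SD. Mrps18c, Mrpl33, Mrpl14 and Mrpl18 were higher in every TuD sample than in any control and also on the TPM scale. Mrps2 and Mrpl10 were lower in every TuD sample. After the correction for coding transcript length, Mrpl33 and Mrpl14 did not pass.

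Of the 4 genes that were lower, Mrps2 (chr2:28468066-28471178, plus strand) changed most. It encodes the homologue of bacterial S2, on the body side of the small subunit. The gene measured 14.2, 17.3 and 15.1 in control replicates 1, 2 and 3 and 9.75, 9.31 and 8.48 in TuD replicates 1, 2 and 3. Every TuD sample was below every control, and the log2 fold change was -0.73 ± 0.113 (SE, n = 3 and 3; adjusted p = 0.00455). Mrpl10 (chr11:97041560-97049213, plus strand), the base of the stalk that recruits translation factors, measured 38.5, 40.9 and 38.5 in control replicates 1, 2 and 3 and 28.7, 28.5 and 29.3 in TuD replicates 1, 2 and 3. Its TuD samples too were all below the controls, with a log2 fold change of -0.44 ± 0.0899 (SE, n = 3 and 3; adjusted p = 0.0104).

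Mrpl19 (chr6:81957851-81965958, minus strand) measured 7.204, 7.75 and 6.38 in control replicates 1, 2 and 3 and 5.55, 5.39 and 4.52 in TuD replicates 1, 2 and 3, a change of -0.43 ± 0.122 (SE, n = 3 and 3; adjusted p = 0.0325). Again the groups did not overlap. The call of Mrpl19 was lost after correction for length, and those of Mrpl19 and Mrps18b were lost when no filter on low values was applied. The lowest values not past the threshold were those of Mrpl3 (-0.31, adjusted p = 0.0528) and Mrpl9 (-0.24, adjusted p = 0.0915) in the large subunit, and of Mrps27 (-0.22, adjusted p = 0.226) and Mrps34 (-0.10, adjusted p = 0.495) in the small.

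The counts by position below stand beside 15.0% higher and 14.3% lower of all tested genes. In the large subunit, the central protuberance, the knob that faces the small subunit, had 4 higher genes of 8 and a median of +0.41. These were Mrpl18, Mrpl27 (+0.55, adjusted p = 0.00827), Mrpl48 (+0.54, adjusted p = 0.0101) and Mrpl58 (+0.46, adjusted p = 0.0203), a peptidyl-tRNA hydrolase built into the ribosome. Mrpl55 (+0.36), Mrpl46 (+0.26), Mrpl40 (+0.18) and Mrpl38 (-0.13) did not pass. The 6 proteins grouped as the core of the large subunit had a median of +0.12. Of these, Mrpl14 and Mrpl13 (+0.45, adjusted p = 0.0427) were higher, and Mrpl2 (+0.13), Mrpl16 (+0.10), Mrpl4 (-0.13) and Mrpl3 did not pass.

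At the exit tunnel and the side facing the inner membrane, 2 of 7 genes were higher, Mrpl23 and Mrpl47 (+0.52, adjusted p = 0.00797), with a median of +0.34. Mrpl17 (+0.34), Mrpl22 (+0.34), Mrpl24 (+0.10), Mrpl44 (-0.15) and Mrpl45 (-0.21), the last a membrane anchor, did not pass. The L7/L12 stalk, which binds elongation factors, had 1 gene in each direction among 4 tested, Mrpl11 higher (+0.36, adjusted p = 0.0484) and Mrpl10 lower. The stalk protein Mrpl12 (-0.08) and Mrpl54 (+0.42) did not pass, and Mrpl1, of the L1 stalk beside the exit site, was higher (+0.54, adjusted p = 0.00782). All of these fold changes are on the size-factor scale, and on the TPM scale the group medians were +0.02 for the central protuberance, +0.19 for Mrpl1 and below 0 for the other large subunit groups. After the coding transcript length correction they were +0.05 for the central protuberance, +0.66 for Mrpl1 and again below 0 for the others.

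In the small subunit, 4 of 8 head genes were higher, Mrps14, Mrps35, Mrps9 and Mrps33 (+0.46, adjusted p = 0.0212), and the median was +0.35. Mrps24 (+0.23), Mrps7 (+0.22), Mrps31 (+0.11) and Mrps10 (+0.10) did not pass. Of the 4 platform genes, Mrps18c, Mrps21 and Mrps6 (+0.45, adjusted p = 0.0496) were higher and Mrps11 (+0.22) was not, with a median of +0.55. The 5 genes of the body and decoding side had no higher member, Mrps2 lower and a median of +0.13, with Mrps16 (+0.39), Mrps17 (+0.21), Mrps12 (+0.13), whose product shapes the decoding centre, and Mrps5 (+0.09) not passing. On the TPM scale the head and body medians were -0.04 and -0.26 and that of the platform was +0.17. After the coding transcript length correction the head and body medians were +0.20 and -0.19, and that of the platform was 2.3e-05. Beside these counts, 15.0% of all tested genes were higher and 14.3% lower. Whether these structural groups differ from one another was not tested.

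Proteins of bacterial descent had a median of +0.30 (16 higher and 3 lower of 45). Those added in mitochondria had a similar median, +0.26 (10 higher and 1 lower of 31). Over all tested genes 15.0% were higher and 14.3% lower. On the TPM scale the medians by descent were -0.08 and -0.12. Counting by structure and not by name, with Mrps18a and Mrps30 (+0.27, adjusted p = 0.128) in the large subunit and Mrps36 (+0.39, adjusted p = 0.0647) in neither, since its product is now assigned to the alpha-ketoglutarate dehydrogenase complex, gave 18 higher and 2 lower large subunit genes and 8 higher and 2 lower small subunit genes. Of the 4 members whose human counterparts are linked to cardiomyopathy, Mrps14 was the 1 that passed. Mrpl3 measured 14.2, 16.5 and 16.2 in control replicates 1, 2 and 3 and 12.8, 12.5 and 12.2 in TuD replicates 1, 2 and 3, all TuD values below the controls. Mrpl44 (-0.15, adjusted p = 0.306) and Mrps22 (+0.0018, adjusted p = 0.994) had overlapping groups.

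Levels ranged widely within each subunit. Large subunit means in the controls ran from 3.47 to 179 normalised FPKM with a median of 33.3, and small subunit means from 3.63 to 133 with a median of 15.4. By the mean over all 6 samples, Mrpl34, which is also the shortest member at 607 bases, was the most abundant at 179 ± 13.7 (control) and 168 ± 34.6 (TuD, SD, n = 3 each), with overlapping groups. Next came Mrpl28 at 145 ± 18.8 (control) and 169 ± 19.8 (TuD, SD, n = 3 each), which also overlapped, and Mrpl14. In the controls alone Mrpl12 (113) and Mrpl2 (110.1) stood above Mrpl14 (101), and in the TuD samples Mrpl14 had the highest mean of the large subunit (178). By the same mean the most abundant small subunit genes were Mrps21, Mrps23 at 132 ± 9.28 (control) and 127 ± 8.37 (TuD, SD, n = 3 each) and Mrps28 at 79.4 ± 2.599 (control) and 104 ± 18.7 (TuD, SD, n = 3 each). The order of the genes by level was nearly the same in both groups (Spearman rho = 0.965 over 48 large subunit genes and 0.948 over 29 small subunit genes, as a description across genes of the same libraries).

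That order depends on the length used. The deposited length merges the exons of all transcripts of a gene, and for 10 members it is over 3 times the length of the main coding transcript. Expressed per kilobase of the main coding transcript, Mrpl30 (319 in the controls), Mrpl42 (289) and Mrps21 (243) came first, and Mrpl33 moved from rank 77 to rank 33 at 53.2. The fold change of a gene is the same with either length, apart from the added 0.5.

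Fold change was related to length in the whole table, and the size of the relation among the members depended on which length was used. Over 9594 tested protein-coding genes the Pearson correlation of log2 fold change with log10 gene length was -0.36, and over the 77 members it was -0.01, with +0.07 for the large and -0.12 for the small subunit. Against the length of the coding sequence it was -0.51 for the members (-0.57 large, -0.43 small) and -0.44 for all protein-coding genes with an annotated transcript. These are descriptions across genes that share the same libraries. By deposited length, the 25 shortest members, 607 to 1644 bases, had a median of +0.34 with 7 higher and 0 lower. Protein-coding genes in that range had a median of +0.37, with 38.01% higher and 2.87% lower. The middle 26 members had a median of +0.14 with 6 higher and 3 lower, beside +0.09 with 17.6% higher. The 26 longest members, 3332 to 8631 bases, had a median of +0.39 with 13 higher and 1 lower. Protein-coding genes in that range had a median of -0.08, with 8.64% higher and 18.6% lower. Among these longest members are Mrpl15, the longest large subunit gene at 8487 bases (+0.26, adjusted p = 0.144), and Mrps35, the longest small subunit gene at 8631 bases.

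Ranked by coding sequence, the medians of the members lay near those of other genes of the same size. The 25 members with 195 to 477 coding bases had a median of +0.46 with 13 higher and none lower, beside +0.44 for protein-coding genes in that range, of which 46.3% were higher and 2.84% lower. The middle 26 members had a median of +0.23 with 9 higher, beside +0.20 with 26.7% higher, and the 26 longest, 756 to 1326 bases, +0.0037 with 4 higher and 4 lower, beside +0.05 with 12.4% higher and 11.1% lower. After a lowess correction of each library for gene length, 25 members were higher and 4 lower, against 14.8% and 11% of all tested genes, with medians of +0.15 and +0.20. A correction for the length of the coding transcript instead was chosen after seeing the data. It gave 14 higher and 8 lower members, against 11% and 12% of the 9580 genes with a coding transcript. The medians of the large and small subunit were then -0.04 and -0.03. Of the 26 genes higher in the main fit, 12 stayed higher and 23 kept their sign.

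**Figure D4:**
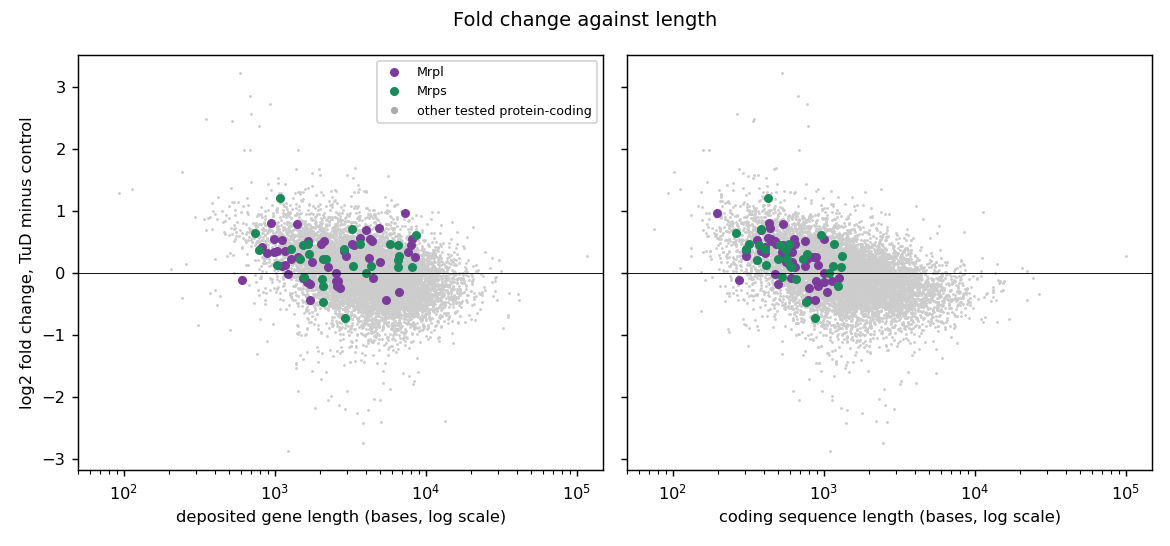
Log2 fold change of members and of all tested protein-coding genes against gene length (left) and coding sequence length (right), both on log axes in bases. The members have r = -0.01 with gene length and r = -0.51 with coding sequence length, where all tested protein-coding genes have -0.36 and -0.44.

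**Figure D5:**
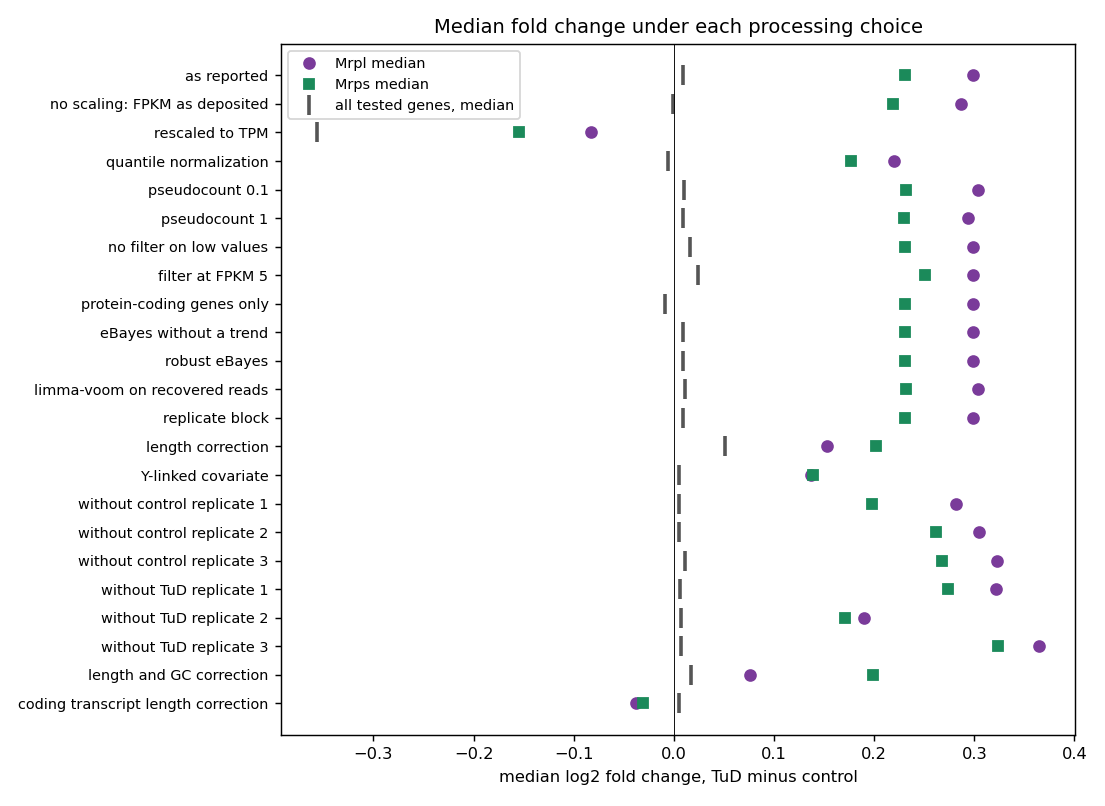
Median log2 fold change of the large subunit, the small subunit and all tested genes under each scaling and correction. The subunit medians lie above that of all genes under the main scaling and under TPM, where all medians are below 0, and fall to -0.04 and -0.03 after the correction for coding transcript length.

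Several members could not be measured cleanly. Mrpl53 was listed with 0 reads in all 6 libraries, where 3 reads would equal 0.196 to 0.264 FPKM. Of its exon bases, 88.0% are shared with Gm42688, an overlapping gene on the same strand, so its absence from the counts cannot be told apart from reads that were set aside as ambiguous. Exon bases shared with another gene were found in 33 of the 78 members, and whether the reads were counted by strand is not given in the sources used here. The share was over 20% in 9 tested members, Mrpl19, Mrpl24, Mrpl43, Mrpl47, Mrps18b, Mrps18c, Mrps25, Mrps27 and Mrps34, whose values are uncertain to that extent. Among the 45 tested members with none, 13 were higher and 1 lower, against 15.0% and 14.3% of all tested genes. Their median was +0.30, so the median was as large without the overlapping genes on the size-factor scale. The 4 processed pseudogenes with reads, Mrpl23-ps1, Mrpl48-ps, Mrps36-ps1 and Mrps36-ps2, stayed at or below 5.37 normalised FPKM.

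Proteins of the mitochondrial ribosome that carry other names moved in both directions. Chchd1, a small subunit protein, measured 58.8, 61.04 and 61.3 in control replicates 1, 2 and 3 and 92.6, 119 and 86.8 in TuD replicates 1, 2 and 3. Its TuD samples lay above the controls, at +0.70 ± 0.131 (SE, n = 3 and 3; adjusted p = 0.00786). Ptcd3, an RNA-binding small subunit protein, measured 15.5, 14.7 and 16.1 in control replicates 1, 2 and 3 and 10.5, 9.704 and 10.99 in TuD replicates 1, 2 and 3. The TuD samples were below the controls, at -0.55 ± 0.0991 (SE, n = 3 and 3; adjusted p = 0.006996). Aurkaip1 (+0.38, adjusted p = 0.0584), Gadd45gip1 (-0.17, adjusted p = 0.2796) and Dap3 (+0.07, adjusted p = 0.681) did not pass.

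Both ribosomal RNAs of the organelle were higher in the TuD group. The small subunit rRNA mt-Rnr1 measured 781, 847 and 879.7 in control replicates 1, 2 and 3 and 3447, 4113 and 2478 in TuD replicates 1, 2 and 3, and the large subunit rRNA mt-Rnr2 805, 837 and 888 in control replicates 1, 2 and 3 and 3248, 4115 and 2267 in TuD replicates 1, 2 and 3. All TuD samples lay above all controls. The log2 fold changes were +1.97 ± 0.194 (SE, n = 3 and 3; adjusted p = 0.00194) and +1.89 ± 0.212 (SE, n = 3 and 3; adjusted p = 0.00212), and remained above 0 on the TPM scale. The share of these RNAs left in a library depends on how rRNA and polyadenylated RNA were selected, which is not given in the sources used here.

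Genes that build and serve the mitochondrial ribosome were counted in the same fit, which called 15.0% of all tested genes higher and 14.3% lower. Of 24 tested assembly and rRNA modification genes, 2 were higher and 4 lower, with a median of +0.01. Noa1, a GTPase of small subunit assembly, was at -0.50, adjusted p = 0.0152. The rRNA methyltransferase Mrm1 was at -0.49, adjusted p = 0.02204 and the helicase Dhx30 at -0.38, adjusted p = 0.0259, whereas the large subunit assembly factor Malsu1 was at +0.44, adjusted p = 0.0354. Of 14 translation factors, 1 was higher and 4 were lower, with a median of -0.20. Taco1, an activator of cytochrome oxidase synthesis, measured 32.6, 41.5 and 29.98 in control replicates 1, 2 and 3 and 11.5, 10.5 and 15.1 in TuD replicates 1, 2 and 3, wholly lower in the TuD group, at -1.45 ± 0.168 (SE, n = 3 and 3; adjusted p = 0.00227). The elongation factor Gfm1 was at -0.60, adjusted p = 0.006202, the recycling factor Gfm2 at -0.46, adjusted p = 0.0254, and Guf1, a back-translocating factor, at +0.45, adjusted p = 0.0417. Among 20 aminoacyl-tRNA synthetase genes, 3 were lower and none higher by limma, namely Vars2, which charges valine tRNA (-0.73, adjusted p = 0.00355), Gatc, a subunit of the amidotransferase that makes glutaminyl-tRNA (-0.42, adjusted p = 0.0169), and Hars2, which charges histidine tRNA (-0.42, adjusted p = 0.0358). On the TPM scale the medians of the assembly, factor and synthetase lists were -0.36, -0.57 and -0.58. Whether the lists differ from the ribosomal proteins was not tested.

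The decoys are directed at miR-199a, which has a 5p and a 3p mature strand. They are printed here because their seeds, bases 2 to 8, in capitals, define the sites that were searched in the 3′ UTRs of the members (sequences from RefSeq).
mmu-miR-199a-5p: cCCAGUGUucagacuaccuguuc
mmu-miR-199a-3p: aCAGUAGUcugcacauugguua

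A site was counted where the 3′ UTR paired with bases 2 to 8, or with bases 2 to 7 and had an A after them. Such a 5p site was found in 19 of 77 members (24.7%), and in 25.2% of the 9551 tested genes with an annotated 3′ UTR. For the 3p strand the numbers were 10 of 77 (13.0%) and 14.8%. Pairing with bases 2 to 8 was found in 16 members (20.8%) and 16.3% of tested genes for 5p, and in 4 members (5.19%) and 8.54% for 3p. The 3′ UTRs of members were shorter, with a median of 497 bases against 1263. The median log2 fold change was +0.27 for members with and without a 5p site, and +0.06 with and +0.28 without a 3p site. Over all tested genes the medians were -0.09 with and +0.02 without a 5p site, and -0.07 with and +0.0003 without a 3p site. Whether fold change is related to the sites was not tested. Examples are shown for members that were higher (Mrpl51, Mrpl14 and Mrps25), lower (Mrps2) and linked to cardiomyopathy (Mrpl44), in GRCm38 coordinates, with the paired bases, and the A that follows them in the last 3 sites, in capitals. The Mrps2 site pairs with bases 2 to 7 and the others with bases 2 to 8. Mrpl51 and Mrps25 also have a 3p site and Mrpl44 a 5p site, which are not shown.
Mrpl51 (5p site, chr6:125193662-125193668, plus strand): actttctgACACTGGcacctcg
Mrpl14 (5p site, chr17:45698439-45698445, plus strand): ctcctgccACACTGGtgacagt
Mrps25 (5p site, chr6:92172686-92172693, minus strand): aaaatgccACACTGGActttctt
Mrps2 (3p site, chr2:28470682-28470688, plus strand): aaaagaacCTACTGAtgggagc
Mrpl44 (3p site, chr1:79781160-79781167, plus strand): acatcatcACTACTGAgcaaagc
A match describes the letters of the 3′ UTR and does not show that the microRNA binds there.

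Promoter windows of 300 bases, 250 before to 50 after a RefSeq start (GRCm38.p6), were matched to 69 of the 78 members, 68 of them tested. In 4 members the window lay over 1000 bases from the deposited start. The motif CCGGAAG of ETS factors such as GABP, searched on both strands, was present in 33.8% of tested members, 19.1% of 7728 tested genes and 8.86% of all 32851 windows. Of the 23 members with it, 11 were higher and 1, Mrps18b, was lower, and of the other members with a window 13 were higher and 2 lower. These counts stand beside 15.0% higher and 14.3% lower of all tested genes. The median log2 fold change with and without the motif was +0.34 and +0.23 in members, and +0.02 and -0.01 in tested genes. AAGATGGCG, bound by YY1, was present in 11.8% of members and 3.62% of tested genes, and the palindromic NRF1 motif in 4.41% and 2.04%. GGGCGG, the SP1 motif, was found in 34 of 68 members and 66.9% of tested genes. CCAAT was present in 38.2% and 38.4%, and TATAAA in 5.88% and 7.18%, all on both strands and with each motif counted on its own. Higher members numbered 0 of 3 with the NRF1 motif, 2 of 8 with YY1 and 12 of 34 with SP1. With CCAAT they were 8 of 26 and with TATAAA 0 of 4. Whether fold change is related to any motif was not tested. The GC content of the windows was 58.9% in the members and 61.4% in the tested genes.

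The 250 bases before the start are shown for Mrps18c, Mrpl18 and Mrpl14, which were higher, and Mrps2, which was lower, with the ETS motif in capitals as CCGGAAG or its reverse complement.
Mrps18c (chr5:100798509-100798758, plus strand): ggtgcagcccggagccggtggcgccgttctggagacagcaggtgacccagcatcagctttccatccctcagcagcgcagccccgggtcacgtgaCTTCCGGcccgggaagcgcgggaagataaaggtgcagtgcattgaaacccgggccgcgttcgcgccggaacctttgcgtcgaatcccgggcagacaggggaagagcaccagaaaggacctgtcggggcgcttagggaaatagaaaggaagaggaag
Mrpl18 (chr17:12916092-12916341, minus strand): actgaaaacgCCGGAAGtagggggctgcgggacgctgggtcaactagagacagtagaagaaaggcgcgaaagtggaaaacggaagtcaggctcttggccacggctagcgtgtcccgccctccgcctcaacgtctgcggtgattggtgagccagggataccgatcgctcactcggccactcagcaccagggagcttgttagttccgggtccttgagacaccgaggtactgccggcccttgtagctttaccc
Mrpl14 (chr17:45686099-45686348, plus strand): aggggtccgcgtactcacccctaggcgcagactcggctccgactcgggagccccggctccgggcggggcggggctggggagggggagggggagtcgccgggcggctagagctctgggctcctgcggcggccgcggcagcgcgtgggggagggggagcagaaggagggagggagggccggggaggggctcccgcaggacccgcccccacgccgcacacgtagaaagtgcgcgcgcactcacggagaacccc
Mrps2 (chr2:28467816-28468065, plus strand): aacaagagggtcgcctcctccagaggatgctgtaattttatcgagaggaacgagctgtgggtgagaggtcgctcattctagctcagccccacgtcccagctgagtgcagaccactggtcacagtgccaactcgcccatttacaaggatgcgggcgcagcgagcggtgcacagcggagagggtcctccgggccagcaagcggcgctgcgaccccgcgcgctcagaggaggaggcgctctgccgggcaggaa
The ETS letters stand in the bases shown of Mrps18c and Mrpl18, and not in those of Mrpl14 and Mrps2, so members that were higher are found with and without them. These 4 were chosen after their values were seen, and the absence of the letters from a window says nothing about the factor.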

How the data were processed

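RNA from 6 samples of mouse myocardium, 3 per group by the labels, was read from an NEBNext Ultra library kit, per the labels' protocols. The submitters' processing notes name HISAT2 2.0.5, featureCounts 1.5.0-p3 and the build mm10; annotation release and strand setting are not given in the sources used here. The authors deposited FPKM per gene with each gene's length. FPKM times length gave whole numbers of reads (tolerance 0.05) for 100.0% of values, and 15.2 to 18.2 M reads per library. The divisors behind the deposited FPKM differed from these totals. They were 18.8 to 19.4 M in control samples, which had 18.0 to 18.2 M reads. In TuD samples they were 14.4 to 16.8 M, beside 15.2 to 16.7 M reads. The deposited FPKM thus already carried a scaling between libraries, whose origin was not tested.

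Size factors by the median of ratios were 0.985 to 1.02 (from 9191 genes with an FPKM of at least 1 in every library), and FPKM divided by them is called normalised. Genes with FPKM of at least 1 in at least 3 samples were tested with limma 3.58.1 in R 4.3.3 (lmFit, eBayes with a trend, two-sided) on log2 of normalised FPKM plus 0.5, with Benjamini-Hochberg adjustment over 10460 genes and a threshold of 0.05. The test was checked on simulated data that held no relation of fold change to length and no split in Y-linked transcripts. That check does not bear on these features. Of the 78 members, 73 have the same coordinates and 73 the same length in GENCODE M21 (GRCm38), which gave transcript and coding lengths, overlaps and 3′ UTRs. Python 3.11.15 was used for summaries.

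The members and lists were chosen with earlier results of these data known. Named per subunit were the 6 highest and 4 lowest fold changes, all lower genes, the 3 most abundant, the shortest and the longest, all members of structural groups, genes that failed the filter, those linked to cardiomyopathy or placed elsewhere by structure, the ribosome proteins named otherwise and both rRNAs, and up to 4 genes of each other list by p-value. Other members named only as kept, lost, overlapping or showing a seed site were chosen after their values were seen. Alternatives were other scalings (TPM, quantile, FPKM as deposited), pseudocounts, filters, variance models and limma-voom on recovered reads. Further ones were a replicate block, a length correction, a Y-linked covariate and leaving out each sample. Corrections for length with GC content and for coding transcript length were added after seeing the data.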

Additional observations from a re-analysis of the deposited data

How the results depend on the processing

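On the TPM scale the large and small subunit medians reversed to -0.0831 and -0.15, with 3 higher and 14 lower large subunit genes, 1 higher and 5 lower small subunit genes, and 438 higher and 4202 lower genes in all. Correction for coding transcript length reversed them to -0.0377 and -0.0307, with 9 higher and 4 lower large and 5 higher and 4 lower small subunit genes. In that fit 11% of all genes were higher and 12% lower. After the gene length correction the large subunit median was +0.15 and the correlation of fold change with gene length reversed from -0.0057 to +0.38. With GC content added the large subunit median was +0.0759 and 5 small subunit genes were higher, where 13% of all genes were. With the Y-linked covariate 3 large and 1 small subunit genes were higher and 1 of each lower, the large subunit median was +0.14, and 651 genes were higher and 529 lower in all. Quantile normalization gave 5 lower large subunit genes, where 16.1% of all tested genes were lower. Without a filter, 1 large subunit gene and 1 small subunit gene were lower and 5 small subunit genes higher, with 1010 higher and 956 lower of 22702.

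Leaving out each sample gave 11 to 24 higher and 1 lower genes in the large subunit, 4 to 14 higher and 1 to 2 lower in the small subunit, and 892 to 1704 higher and 747 to 1605 lower over all genes; each upper count of higher genes came without TuD replicate 3. The sign of 30 of the 77 members turned from plus to minus on the TPM scale and that of 23 after the coding transcript length correction. Those among them past the threshold in the main or the other fit were Mrpl11 (-0.0189) and Mrpl39 (-0.38) on the TPM scale, and Mrpl30 (-0.15), Mrpl52 (-0.30), Mrps12 (-0.36) and Mrps21 (-0.21) after the coding transcript length correction. The cause of these changes was not tested.

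The replicate numbers are shared by the groups, but same-numbered samples did not deviate together (correlations 0.0637, 0.0882 and -0.0554), and not every sample correlated best with its own number. With the replicate block 16 large subunit genes were higher and 2 lower, and 7 small subunit genes were higher and 1 lower. That fit called 14% of all tested genes higher and 11.5% lower. Tested members had 141 to 4738 reads per library.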
